A study of Mus musculus with 15 samples.

Results

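The bone morphogenetic protein (BMP) and ALK1 pathway was followed through 10 genes, of 49585 in the count table, in cells that a mouse glioma stem cell line forms when it is driven towards an endothelial fate. The genes were the ligand Bmp4, the receptors Acvrl1 (the gene of ALK1) and Eng (endoglin), the inhibitory Smads Smad6 and Smad7, and the target genes Id1, Id2, Id3, Id4 and Atoh8. They were taken by name, and the set was selected on measured values of the same libraries, a strong rise of Acvrl1 and Atoh8 on day 2, so the values of day 2 tumor derived endothelial cells (TDECs) against 005 cells are given as a description, with no test.

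Poly(A) RNA was sequenced from 15 libraries, 3 in each of 5 groups, all of strain C57BL/6. The first group was TDECs that had differentiated for 5 days and were then given 5 µM sertraline, a serotonin reuptake inhibitor used as an antidepressant, and collected after 24 h. The time course held 005 cells (the glioma stem cells, a single line kept in serum-free stem cell medium), day 2 TDECs and day 5 TDECs, both grown from 005 in EGM-2 BulletKit endothelial medium at 1% O2. The last group was MBMECs, purchased mouse brain microvascular endothelial cells kept in another, serum-containing medium at an oxygen level that is not given in the sources used here. The labels give no day for the untreated TDECs, which are called day 5 TDECs here after the study's account. The sertraline-treated cells may therefore be 1 day older than the untreated ones. Titles of 005, day 2 and day 5 libraries carry a prefix that those of the sertraline and MBMEC libraries lack, and a difference between runs that this prefix may mark cannot be told apart from the drug or from the cell type. Nothing in the labels says that the 3 libraries of a group came from separate cultures, although the study calls those of the sertraline experiment biological replicates, so p-values measure the spread between these libraries, which may be technical.

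BMP ligands bind a pair of type I and type II receptors on the cell surface. The type I receptor then phosphorylates Smad1, Smad5 or Smad9 (Smad8), which join Smad4, enter the nucleus and bind GC-rich sites and GTCTG sites near their target genes. ALK1 is the type I receptor of endothelial cells for the circulating ligands BMP9 (gene Gdf2) and BMP10, endoglin is its co-receptor, and mutations in either gene cause hereditary haemorrhagic telangiectasia in people. Most other cells use Bmpr1a (ALK3), Bmpr1b (ALK6) or Acvr1 (ALK2) for ligands such as BMP2, BMP4 and BMP7. The Id genes are among the most direct BMP targets. Their proteins have a helix-loop-helix but no DNA-binding part, and they hold E proteins away from the bHLH factors that drive differentiation, Olig2 among them. Smad6 and Smad7 are targets that feed back and dampen the signal, and in glioma stem cells BMP is known to favour astrocyte-like differentiation.

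Promoters of 7 of the 10 members were matched in RefSeq (build GRCm38.p6), as 250 bases before the RefSeq start. For Id3 that start lies 325 bases inside the gene as the count table places it, for Id4 it lies 311 bases before the table's start, and for the other 5 the starts are the same. The 3 Id promoters and that of Atoh8 are shown, 5′ to 3′, because the Id genes differed from each other in their time course and Atoh8 had the largest fitted difference of the members on day 2 against 005, the contrast that chose the set. Capitals mark the GC-rich Smad1/5 motif GGCGCC and the Smad motif GTCTG or its reverse complement CAGAC, both searched on both strands.
Id2, chr12:25096093-25096342, minus strand: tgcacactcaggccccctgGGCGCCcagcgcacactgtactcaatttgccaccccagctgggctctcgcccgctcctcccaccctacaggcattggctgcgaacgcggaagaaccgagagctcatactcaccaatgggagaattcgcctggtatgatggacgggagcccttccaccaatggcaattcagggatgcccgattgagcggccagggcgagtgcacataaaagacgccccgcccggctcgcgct
Id3, chr4:136143572-136143821, plus strand: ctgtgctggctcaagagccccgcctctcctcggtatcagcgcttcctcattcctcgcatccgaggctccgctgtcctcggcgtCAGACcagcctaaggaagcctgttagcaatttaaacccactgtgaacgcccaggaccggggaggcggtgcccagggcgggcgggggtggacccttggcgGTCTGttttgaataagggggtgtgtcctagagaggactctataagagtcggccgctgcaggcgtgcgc
Id4, chr13:48260866-48261115, plus strand: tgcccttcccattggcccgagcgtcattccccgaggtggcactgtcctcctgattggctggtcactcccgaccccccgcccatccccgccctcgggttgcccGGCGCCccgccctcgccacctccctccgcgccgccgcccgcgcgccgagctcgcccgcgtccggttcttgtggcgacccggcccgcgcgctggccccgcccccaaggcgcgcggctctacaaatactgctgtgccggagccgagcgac
Atoh8, chr6:72235578-72235827, minus strand: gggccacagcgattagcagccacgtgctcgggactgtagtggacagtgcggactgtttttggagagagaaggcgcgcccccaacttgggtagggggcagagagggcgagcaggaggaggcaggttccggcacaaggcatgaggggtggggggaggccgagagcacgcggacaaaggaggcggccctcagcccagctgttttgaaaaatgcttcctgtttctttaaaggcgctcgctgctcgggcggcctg

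Id2 and Id4 each held 1 GGCGCC, starting 231 and 148 bases before the RefSeq start. Id3 held none, but 2 GTCTG sites at 167 and 68 bases before the RefSeq start, within the gene range of the count table. GGCGCC was found in 9.54% and GTCTG in 42.1% of all 27025 promoters of this length. Their median GC content was 52.0%, against 62.8% for Id2, 62.8% for Id3 and 75.6% for Id4, so these shares are not matched for base composition. Atoh8, Smad6 and Bmp4 held neither motif, while Eng held 2 GTCTG sites. These are matches of letters within 250 bases, and nothing here shows whether a Smad binds them.

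The libraries held 11283680 to 17093061 counts. A chi-square of counts within groups stood at 2.15 to 2.64 per gene for pairs of 005 replicates 1 and 2, day 2 replicates 1 and 2, the day 5 libraries and sertraline replicates 1 and 3, where counting error alone gives about 1. Replicate 3 of 005 and of day 2 stood apart from the others of its group at 11.1 to 11.7, and sertraline replicate 2 at 6.97 to 7.27. Of 12 endothelial markers, all were well expressed in MBMECs, with a summed level of 9018 to 9196 CPM (read counts scaled by TMM to a common library size). In day 5 TDECs the sum was 46.8 to 52.8 CPM, against 7.69 to 11.8 CPM in 005. A mean of at least 1 CPM was reached by 4 of the 12 markers in day 5 TDECs and by 5 in 005. Cldn5 and Tie1 had no counts in day 5 TDECs. All 12 were called lower there than in MBMECs, where 20.8% of all genes were. Most defining transcripts of the labelled cell type on this list were thus below 1 CPM in these libraries. In bulk RNA, fewer cells of a kind and less RNA per cell cannot be told apart.

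Over the time course, the pathway's receptors and targets followed different paths. Acvrl1 and Atoh8 were highest on day 2, Id2 and Id3 were highest on day 2 but stayed above 005 on day 5, Id1 and Smad6 overlapped between the 2 days, and Id4, Smad7 and Bmp4 were highest on day 5. Of the 10 members, 8 had day 2 libraries that all lay above all 005 libraries, where 52.4% of all tested genes did not overlap between these groups. Since the members were chosen with that contrast in view, nothing is read from this count. Against 005, day 5 TDECs had 5 of the 9 members tested called higher and 0 called lower, where 13.1% of all genes were called higher and 10.4% lower (adjusted p under 0.05 and a change of more than 2-fold). The median log2 difference of those 9 members was 1.42, against -0.01 for all genes. At any fold, 7 of the 9 had an adjusted p under 0.05, against 65.4% of all genes, and 8 of the 10 members had day 5 libraries all above those of 005, where 69.5% of all tested genes did not overlap. This comparison shares the 005 libraries with the one that chose the members, and Atoh8 is among the 5, so nothing is read from these counts either. Day 5 against day 2 had 0 of 9 members called higher, where 11.1% of all genes were, and the 2 called lower (9.35% of all genes) were Acvrl1 and Atoh8, whose day 2 values had chosen the set. Beside these, Id2, Id3, Id4 and Smad7 had an adjusted p under 0.05, where 63% of all genes did, and 7 of the 10 members had libraries apart between the 2 days, against 68.8% of all genes. These shares were close to those of all genes.

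**Figure D1:**
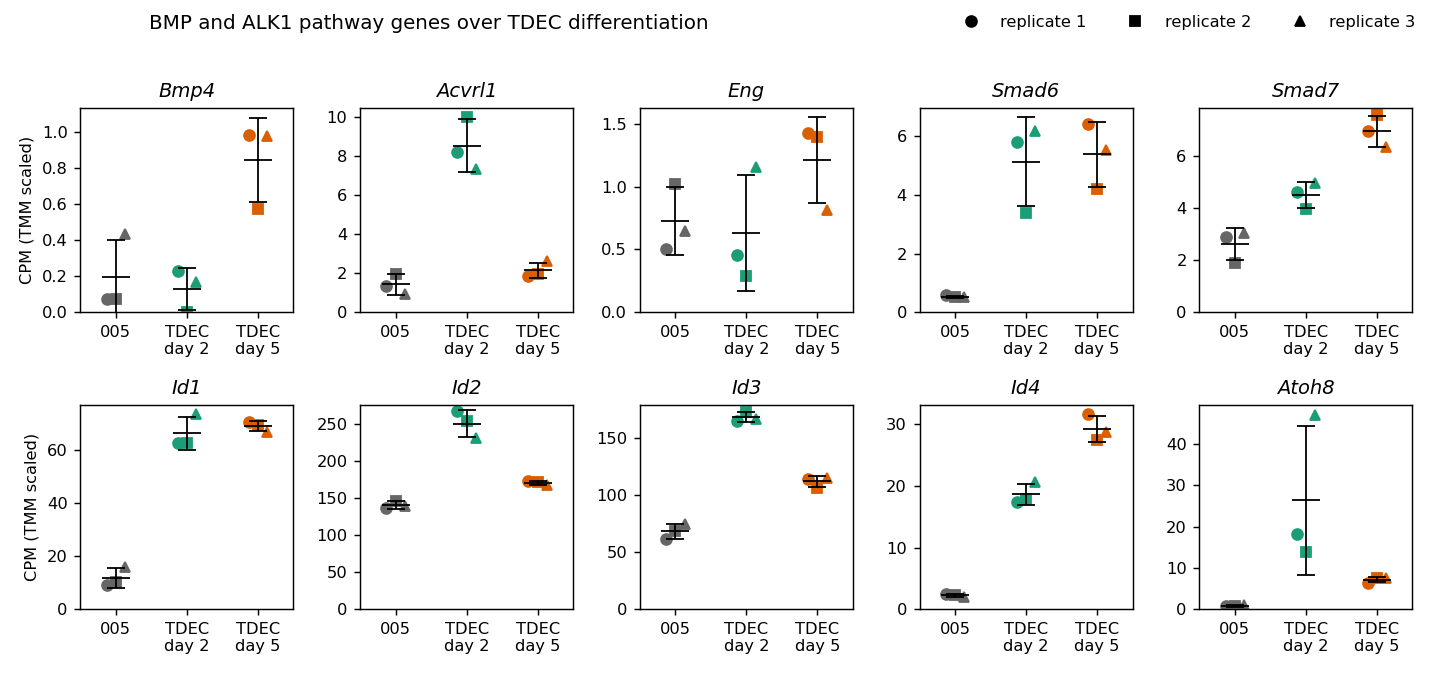
CPM of the 10 members in each library of 005, day 2 and day 5 TDECs, with the mean and SD of 3 libraries as bars and the replicate number as the symbol. Each panel has its own linear axis from 0. Acvrl1 and Atoh8 peaked on day 2, while the libraries of Id1 and Smad6 overlapped between day 2 and day 5.

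Acvrl1 (chromosome 15, 101128522 to 101145336, plus strand, build mm10) had 1.37, 1.97 and 0.937 CPM in 005, 8.23, 10.01 and 7.35 CPM on day 2, and 1.87, 1.97 and 2.60 CPM on day 5. Every day 2 library was above every 005 and day 5 library, while 005 and day 5 overlapped. The fitted log2 difference was 2.56 for day 2 against 005, or 5.90-fold, and -1.97 for day 5 against day 2, both as descriptions. Day 5 against 005 gave 0.60 ± 0.32 (SE), also as a description, since the 005 values of this gene had been used in the choice. The day 2 level rested on 89 to 139 counts per library, against 13 to 27 in 005.

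Eng (chromosome 2, 32646595 to 32682669, plus strand), the co-receptor, did not follow Acvrl1. It had 0.503, 1.02 and 0.649 CPM in 005, 0.453, 0.288 and 1.16 CPM on day 2, and 1.42, 1.40 and 0.814 CPM on day 5. These stand for 4 to 17 counts per library, and the 3 groups overlapped. Day 5 against 005 gave a log2 difference of 0.74 ± 0.40 (SE, adjusted p = 0.12) and day 5 against day 2 0.97 ± 0.52 (adjusted p = 0.12). The second value became 1.69 with an adjusted p of 0.0097 without day 2 replicate 3, the library that stands apart in its group. At this depth no peak of Eng on day 2 was detectable.

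Smad6 and Smad7 encode the inhibitory Smads. Smad6 (chromosome 9, 63953076 to 64022059, minus strand), which acts mainly on the BMP branch, had 0.575, 0.511 and 0.505 CPM in 005, 5.81, 3.39 and 6.19 CPM on day 2, and 6.41, 4.19 and 5.53 CPM on day 5. All TDEC libraries were above all 005 libraries and the 2 days overlapped. Day 5 TDECs were 10.02-fold above 005 (log2 difference 3.33 ± 0.29 SE, adjusted p = 7.8e-07). Between day 5 and day 2 the log2 difference was 0.08, with a 95% interval of -0.43 to 0.59 (adjusted p = 0.80).

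Smad7 (chromosome 18, 75367529 to 75395935, plus strand), which dampens both the BMP and the TGF-beta branch, had 2.88, 1.90 and 3.03 CPM in 005, 4.603, 3.96 and 4.95 CPM on day 2, and 6.94, 7.55 and 6.35 CPM on day 5. No 2 of these groups overlapped, and the level was higher at each later stage. Day 5 TDECs stood 2.68-fold above 005 (log2 difference 1.42 ± 0.21 SE, adjusted p = 6.8e-05) and above day 2 by a log2 difference of 0.64 ± 0.18 (SE, adjusted p = 0.0091).

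Id1 (chromosome 2, 152736251 to 152737410, plus strand) had 8.99, 10.4 and 16.01 CPM in 005, 62.5, 62.4 and 73.4 CPM on day 2, and 70.5, 69.1 and 66.7 CPM on day 5. The TDEC libraries were all above those of 005, and the 2 days overlapped. Day 5 TDECs were 5.86-fold above 005 (log2 difference 2.55 ± 0.15 SE, adjusted p = 2.4e-08). Day 5 against day 2 gave 0.07 with a 95% interval of -0.08 to 0.22 (adjusted p = 0.47), and 0.14 (adjusted p = 0.042) without day 2 replicate 3.

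Id2 and Id3, the most abundant Id transcripts of 005, moved in the same way. Id2 (chromosome 12, 25093801 to 25096092, minus strand) had 137, 146 and 139 CPM in 005, 267, 254 and 231 CPM on day 2, and 173, 171 and 168 CPM on day 5. Id3 (chromosome 4, 136143497 to 136145755, plus strand) had 61.8, 68.3 and 74.9 CPM in 005, 165, 173 and 167 CPM on day 2, and 114, 107 and 115 CPM on day 5. For both genes no 2 groups overlapped, day 2 was the highest and day 5 lay between. Day 5 TDECs exceeded 005 by a log2 difference of 0.29 ± 0.06 for Id2 (SE, adjusted p = 0.00086) and 0.73 ± 0.08 for Id3 (adjusted p = 4.1e-06), both less than 2-fold. Against day 2, day 5 was lower by -0.55 ± 0.06 for Id2 (adjusted p = 1.8e-05) and -0.58 ± 0.06 for Id3 (adjusted p = 6.4e-06), also log2 values with SE.

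Id4 (chromosome 13, 48261427 to 48264036, plus strand) was highest on day 5, unlike Id2 and Id3. It had 2.52, 2.26 and 2.02 CPM in 005, 17.4, 17.9 and 20.6 CPM on day 2, and 31.5, 27.4 and 28.7 CPM on day 5. The 3 groups were apart. Day 5 TDECs were 12.9-fold above 005 (log2 difference 3.69 ± 0.14 SE, adjusted p = 4e-10) and above day 2 by 0.66 ± 0.11 (adjusted p = 0.00021). The gene A330033J07Rik overlaps Id4 on the opposite strand and averaged 0.554 CPM in 005, 3.01 CPM on day 2 and 6.42 CPM on day 5. The library kit keeps strand, but the strand setting of the counting is not given in the sources used here, so a part of reads shared by this pair cannot be told apart.

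Atoh8 (chromosome 6, 72206177 to 72235577, minus strand), a bHLH transcription factor downstream of ALK1 in endothelial cells and of BMP in liver, had 0.791, 0.730 and 1.15 CPM in 005, 18.3, 14.0 and 47.1 CPM on day 2, and 6.50, 7.55 and 7.57 CPM on day 5. The 3 groups did not overlap, but day 2 replicate 3 stood far above the other day 2 libraries. The fitted log2 difference of day 2 against 005 was 4.85, and 4.14 without day 2 replicate 3. Day 5 against day 2 gave -1.85, and -1.15 without that library, all of these as descriptions. Day 5 TDECs were 8.07-fold above 005 (log2 difference 3.01 ± 0.24 SE), again a description, since it uses the 005 values that had been used in the choice of this gene.

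Bmp4 (chromosome 14, 46383520 to 46390669, minus strand), the ligand, was near the limit of detection in 005 and TDECs. It had 1, 1 and 6 counts in 005, 3, 0 and 2 counts on day 2, and 11, 7 and 12 counts on day 5, which are means of 0.193, 0.131 and 0.843 CPM. It was therefore removed by the filter on low counts in the 6-library comparisons of the time course. In a fit of all 15 libraries Bmp4 passed the filter only through the MBMECs, which had 367 to 441 counts. Its log2 differences there are given as descriptions, 2.098 for day 5 against 005 and 2.66 for day 5 against day 2.

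The 62 other genes of the pathway did not move as a block, and 40 of them passed the filter. On day 2 against 005, 5 were called higher and 3 lower, against 5.35% and 4.48% of all genes. On day 5 against 005, 9 were higher and 4 lower, where 13.1% and 10.4% of all genes were called. The median log2 difference of the 40 was 0.04 (all genes -0.01), and with scaling by plain library totals the 9 became 5. On day 5 against day 2, 6 were higher and 5 lower, where 11.1% and 9.35% of all genes were called. The ligand Bmp2 had a mean of 1.18 CPM in 005, 1.26 CPM on day 2 and 7.69 CPM on day 5 (day 5 against 005, log2 difference 2.703 ± 0.20 SE, adjusted p = 1.9e-07). Bmp7 went the other way, with means of 55.2, 29.8 and 13.1 CPM in the same order (-2.07 ± 0.09, adjusted p = 1.2e-09).

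Among the receptors, Bambi, a decoy receptor without a kinase, averaged 2.87 CPM in 005, 16.7 CPM on day 2 and 14.9 CPM on day 5. It rose on day 2 by a log2 difference of 2.52 ± 0.16 (SE, adjusted p = 9.5e-07) and on day 5 by 2.38 ± 0.15 (adjusted p = 3.6e-08), both against 005. Bmpr1a, the ALK3 gene, had the highest level per length among the type I receptor genes Acvrl1, Acvr1, Bmpr1a and Bmpr1b. It stood at 303, 423 and 314 CPM in the 3 stages, and day 5 against 005 gave 0.06 ± 0.08 (SE, adjusted p = 0.48). Smad1 averaged 57.9, 54.3 and 56.6 CPM, with -0.02 ± 0.07 (SE, adjusted p = 0.79) for day 5 against 005. The ALK1 ligand genes Gdf2 and Bmp10 had 0 and 1 counts over all 15 libraries.

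Of the other ALK1 and BMP targets, Efnb2, an arterial ephrin, averaged 16.2 CPM in 005, 79.3 CPM on day 2 and 63.2 CPM on day 5, and day 5 was above 005 by a log2 difference of 1.97 ± 0.08 (SE, adjusted p = 4.2e-10). Tmem100, an ALK1 target of arterial endothelium, went down to 0.307 CPM on day 5 against 4.00 CPM in 005 (-3.65 ± 0.33, adjusted p = 9.9e-07). Nbl1, a secreted BMP antagonist also called DAN, averaged 61.4 CPM on day 5 against 21.3 CPM in 005 (1.54 ± 0.08, adjusted p = 3.5e-09). Of 8 tested E proteins and bHLH factors, 1 was called higher and 4 lower on day 5 against 005, where 13.1% and 10.4% of all genes were. Olig1 and Olig2, bHLH factors of the oligodendrocyte lineage, were lower by log2 differences of -1.94 ± 0.07 and -1.38 ± 0.07 (adjusted p = 1.9e-10 and 4e-09). The summed level of 7 oligodendrocyte-lineage markers, a list that holds genes of this kind, was 464 to 488 CPM on day 5 against 1475 to 1719 CPM in 005. The 5 neuron markers summed to 37.4 to 44.7 CPM on day 5 against 113 to 129 CPM in 005, and the 7 mural markers to 165 to 171 CPM against 80.4 to 86.3 CPM. Of 5 oligodendrocyte-lineage markers tested, 4 were called lower and 0 higher. Of 5 neuron markers tested, 3 were called lower and 1 higher. Only 2 mural markers were tested, with 1 called higher and 0 lower, so the sums do not stand for every marker of a list. The part of these shifts in the results was not tested. On day 2 the astrocyte list (6 markers) summed to 1034 to 1078 CPM, against 566 to 575 CPM in 005, with 2 of the 6 called higher and 0 lower.

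In the TGF-beta branch, of 11 tested genes 3 were called higher and 0 lower on day 5 against 005, where 13.1% and 10.4% of all genes were, and the median log2 difference was 0.04 (all genes -0.01). They were Smad3, the receptor-activated Smad of TGF-beta (log2 difference 1.93 ± 0.07 SE, adjusted p = 1.3e-10), Ltbp1, which tethers latent TGF-beta (2.27 ± 0.13, adjusted p = 1.1e-08), and the ligand Tgfb1 (2.27 ± 0.24, adjusted p = 4.4e-06).

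Levels of different genes were set side by side per exon length, as CPM per kilobase of exon (FPKM), with the union of GENCODE M21 exons as length. The 4 Id genes summed to 107 ± 7.16 FPKM in 005 (SD, n = 3), 259 ± 1.72 FPKM on day 2 and 200 ± 3.83 FPKM on day 5. Id2 made up 54.2% ± 3.4 of the sum in 005, 39.7% ± 2.6 on day 2 and 35.1% ± 0.57 on day 5. The share of Id1 was 9.46% ± 2.4, 22.0% ± 2.3 and 29.7% ± 0.64 in the same stages. The pool of Id transcripts was thus larger on both days than in 005 and held more Id1, while Id4 stayed a minor member at 3.80% ± 0.20 on day 5.

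**Figure D2:**
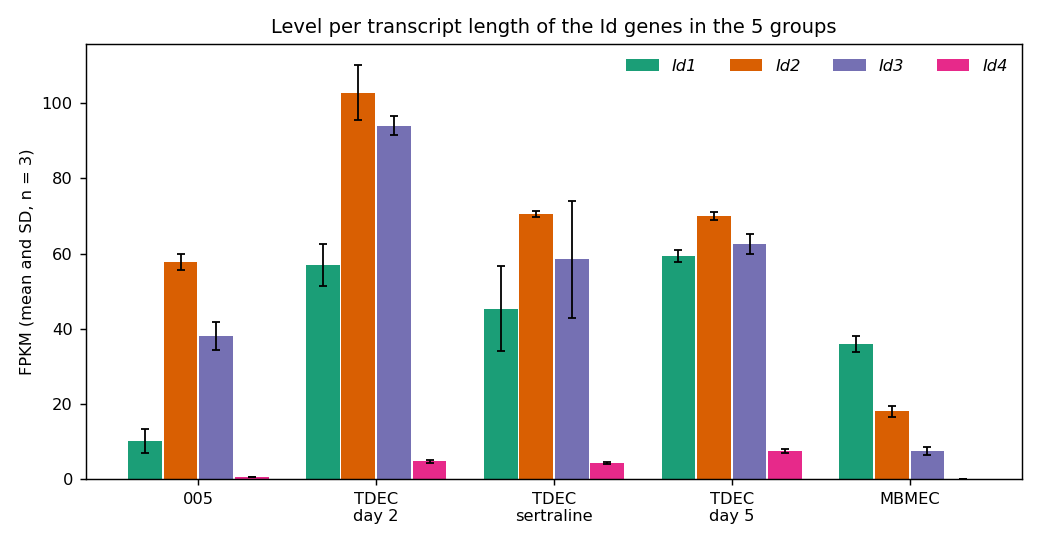
Mean FPKM of Id1 to Id4 in the 5 groups, with bars as means and error bars as SD of 3 libraries, on a linear axis from 0. The sertraline-treated TDECs stand to the left of the day 5 TDECs. Id2 and Id3 lead in 005 and on day 2, and Id1 leads in MBMECs, where Id4 has no counts.

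The next comparison asks what sertraline did to these genes in TDECs. None of the 9 members tested reached a 2-fold change (0 called higher and 0 lower by edgeR and by DESeq2, against 1.82% and 3.26% of all genes by edgeR), and at an unadjusted p under 0.05 the count was 5. Those 5 members also had an adjusted p under 0.05, where 35.3% of all genes did. The treated and untreated libraries of 5 of the 10 members did not overlap, against 47.5% of all genes, which is a share near that of all genes. Id4 and Id1 were lower with sertraline, and Smad7, Atoh8 and Acvrl1 were higher. Sums of marker lists differed in the same libraries. The endothelial list summed to 25.9 to 32.5 CPM with sertraline, against 46.8 to 52.8 CPM in day 5 TDECs, with Cldn5 and Tie1 at 0 in both. Of the 5 markers of that list tested, 1 was called lower and 0 higher, and 1 had an adjusted p under 0.05. Flt1 was lower in all treated libraries, at 0.501 of the day 5 mean. Other endothelial markers went both ways with overlap, such as Kdr (1.33) and Esam (0.701). Neural stem cell markers summed to 870 to 887 CPM with sertraline, against 1053 to 1124 CPM, and astrocyte markers to 970 to 1007 CPM, against 828 to 910 CPM. Of 4 neural stem cell markers tested, 1 was called lower and 0 higher. Of 6 astrocyte markers tested, 0 were called in either direction. The part of these shifts in the results was not tested.

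Id4 had 15.8, 17.7 and 17.5 CPM with sertraline, against 31.5, 27.4 and 28.7 CPM in day 5 TDECs. The groups were apart, and the log2 difference was -0.81 ± 0.10 (SE, adjusted p = 7.9e-06). It was -0.84 without sertraline replicate 2, the library that stands apart. The overlapping gene A330033J07Rik averaged 4.17 CPM with sertraline, against 6.42 CPM in day 5 TDECs.

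Id1 had 47.8, 67.4 and 42.5 CPM with sertraline, against 70.5, 69.1 and 66.7 CPM in day 5 TDECs, so that sertraline replicate 2 lay within the untreated range and the other libraries well below it. The log2 difference was -0.42 ± 0.12 (SE, adjusted p = 0.010). It became -0.64 (adjusted p = 2.3e-09) without sertraline replicate 2, -0.35 (adjusted p = 0.055) without replicate 1 and -0.29 (adjusted p = 0.052) without replicate 3. DESeq2 gave an adjusted p of 0.11, so the call for Id1 depended on which library and which test were used.

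Id3 showed the same pattern of libraries. It had 91.5, 137 and 86.2 CPM with sertraline, against 114, 107 and 115 CPM in day 5 TDECs. The treated libraries thus lay on both sides of the untreated ones, with a log2 difference of -0.13 and a 95% interval of -0.37 to 0.10 (adjusted p = 0.42). Without sertraline replicate 2 the difference was -0.37 (adjusted p = 2.1e-06).

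Id2 had 170, 174 and 172 CPM with sertraline, against 173, 171 and 168 CPM in day 5 TDECs. The groups overlapped and the log2 difference of -0.02 had a 95% interval of -0.12 to 0.08 (adjusted p = 0.75).

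Smad7 had 12.1, 8.76 and 11.9 CPM with sertraline, against 6.94, 7.55 and 6.35 CPM in day 5 TDECs. All treated libraries were above the untreated ones (log2 difference 0.62 ± 0.15 SE, adjusted p = 0.0054), replicate 2 the least. Smad6 had 4.41, 5.94 and 4.70 CPM with sertraline, against 6.41, 4.19 and 5.53 CPM. Its groups overlapped, and the log2 difference of -0.13 had a 95% interval of -0.51 to 0.26 (adjusted p = 0.65).

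Atoh8 had 9.76, 15.6 and 10.6 CPM with sertraline, against 6.50, 7.55 and 7.57 CPM in day 5 TDECs, a log2 difference of 0.70 ± 0.17 (SE, adjusted p = 0.0047). The groups were apart, and without sertraline replicate 2 the value was 0.47 (adjusted p = 0.013). In a fit of all 15 libraries, which takes in the wide spread of day 2, the adjusted p was 0.13. Acvrl1 had 3.04, 4.92 and 3.40 CPM with sertraline, against 1.87, 1.97 and 2.60 CPM, and the log2 difference was 0.78 ± 0.25 (SE, adjusted p = 0.025). Here too the groups were apart, but the adjusted p was 0.12 without sertraline replicate 2, 0.089 and 0.087 without day 5 replicates 1 and 2, and 0.051 by DESeq2.

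Eng had 1.23, 1.01 and 0.868 CPM with sertraline, against 1.42, 1.40 and 0.814 CPM, and the log2 difference of -0.25 had a 95% interval of -0.94 to 0.44 (adjusted p = 0.62). Bmp4 had 7, 4 and 1 counts with sertraline, against 11, 7 and 12 counts in day 5 TDECs, and was under the filter. In the fit of all 15 libraries, which Bmp4 enters only through the MBMECs, its log2 difference was -1.53, given as a description.

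**Figure D3:**
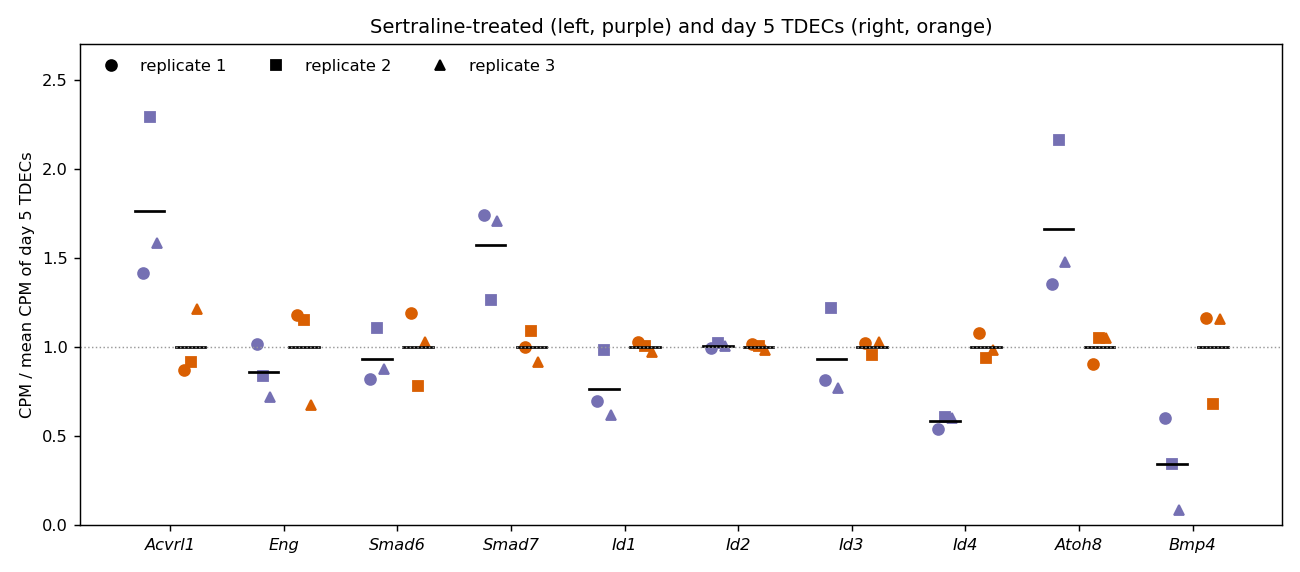
CPM of the 10 members in each sertraline-treated library (left, purple) and day 5 TDEC library (right, orange), divided by the mean of the day 5 TDECs, with means as horizontal lines and the replicate number as the symbol, on a linear axis from 0. Id4 was lower in all treated libraries, and treated replicate 2 (square) was the highest treated library for Acvrl1, Smad6, Id1, Id2, Id3, Id4 and Atoh8.

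Of the 39 other pathway genes tested, 0 were called higher and 0 lower with sertraline, where 1.82% and 3.26% of all genes were. At any fold, 17 had an adjusted p under 0.05 by edgeR, where 35.3% of all genes did (20 at an unadjusted p under 0.05, where 44.6% of all genes did). Bmpr1a averaged 247 CPM with sertraline, against 314 CPM in day 5 TDECs (log2 difference -0.38 ± 0.07 SE, adjusted p = 0.00032), while Bmpr1b averaged 11.6 CPM against 7.02 CPM (0.69 ± 0.14, adjusted p = 0.00098). Hes5, a bHLH factor and Notch target, averaged 0.434 CPM with sertraline, against 2.47 CPM in day 5 TDECs (-2.51 ± 0.39, adjusted p = 0.00011).

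The last comparison sets day 5 TDECs against MBMECs, which are endothelial cells by origin. Acvrl1, Eng, Bmp4 and Smad6 were called lower in TDECs, while Id2, Id3, Id4 and Atoh8 were called higher, which makes 4 in each direction of 10 members tested. Of all genes, 28.1% were called higher and 20.8% lower. At any fold 9 members had an adjusted p under 0.05, against 85.8% of all genes, and all 10 had libraries that did not overlap, against 86% of all genes. Bmp4 passed the filter only through the MBMECs, and Id4 and Atoh8 only through the TDECs. The values of these genes are therefore given as descriptions here, and nothing is read from the counts of members.

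Acvrl1 had 1.87, 1.97 and 2.60 CPM in day 5 TDECs, against 627, 595 and 638 CPM in MBMECs. The TDEC level was 273-fold lower (log2 difference -8.09 ± 0.08 SE, adjusted p = 5.4e-33). Even the day 2 peak, at 8.53 ± 1.36 CPM (SD, n = 3), was small beside the MBMEC mean of 620 ± 22.0 CPM. The gene Gm16031, which overlaps Acvrl1 on the other strand, had 199 counts over the MBMEC libraries and 0 in all others.

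Eng had 1.42, 1.40 and 0.814 CPM in day 5 TDECs, against 270, 274 and 276 CPM in MBMECs, 215-fold lower in TDECs (-7.75 ± 0.10, adjusted p = 3.1e-31). Bmp4 had 11, 7 and 12 counts in day 5 TDECs, against 391, 441 and 367 counts in MBMECs (log2 difference -4.93, as a description). Smad6 had 6.41, 4.19 and 5.53 CPM in day 5 TDECs, against 58.6, 52.0 and 59.3 CPM in MBMECs, 10.1-fold lower in TDECs (-3.33 ± 0.11, adjusted p = 2.5e-21). The libraries of these 4 genes did not overlap between the cell types, as was so for all 10 members and 86% of all genes.

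Smad7 was not called, although every TDEC library lay below every MBMEC library. It had 6.94, 7.55 and 6.35 CPM in day 5 TDECs, against 7.87, 8.56 and 8.01 CPM in MBMECs, a log2 difference of -0.16 with a 95% interval of -0.45 to 0.13 (adjusted p = 0.30).

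The Id genes were all higher in TDECs than in MBMECs. Id1 had 70.5, 69.1 and 66.7 CPM in day 5 TDECs, against 42.4, 39.1 and 43.7 CPM in MBMECs (log2 difference 0.79 ± 0.07 SE, adjusted p = 7.8e-12), a gap of less than 2-fold. Id2 had 173, 171 and 168 CPM against 40.2, 47.8 and 44.1 CPM in MBMECs (2.02 ± 0.06, adjusted p = 1.3e-22). Id3 had 114, 107 and 115 CPM against 14.1, 11.6 and 14.9 CPM in MBMECs, 8.67-fold higher in TDECs (3.12 ± 0.08, adjusted p = 2.6e-24).

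Id4 had 31.5, 27.4 and 28.7 CPM in day 5 TDECs and no counts in any MBMEC library. As a description, it was at least 429-fold higher in TDECs against a floor of 3 counts over the MBMEC group. Per length, the Id sum was 200 ± 3.83 FPKM in day 5 TDECs and 61.6 ± 2.20 FPKM in MBMECs (SD, n = 3 each), and Id1 held 29.7% ± 0.64 of it in TDECs and 58.4% ± 1.8 in MBMECs. The MBMEC pool was thus smaller and led by Id1. Atoh8 had 6.50, 7.55 and 7.57 CPM in day 5 TDECs, against 0.452, 1.10 and 0.638 CPM in MBMECs. It was 10.3-fold higher in TDECs (log2 difference 3.37, as a description), so it did not follow Acvrl1 across these groups.

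Per length, among the type I receptor genes Acvrl1, Acvr1, Bmpr1a and Bmpr1b, ALK1 was the leading transcript in MBMECs and ALK3 in TDECs. Acvrl1 averaged 0.504 FPKM in day 5 TDECs and 145 FPKM in MBMECs, while Bmpr1a averaged 49.4 FPKM in day 5 TDECs and 0.0494 FPKM in MBMECs. For Bmpr1a the log2 difference was 9.98, on 3533 to 3855 counts per TDEC library against 3 to 7 per MBMEC library. This value is a description, since Bmpr1a passed the filter only through the TDECs. Bmpr1b had 250 counts over the TDEC group and 0 in MBMECs, at least 103-fold higher in TDECs. Acvr1, the ALK2 gene, averaged 6.80 FPKM in TDECs and 4.52 FPKM in MBMECs, and the type II receptor Bmpr2 10.9 and 5.41 FPKM, so both were present in each cell type. Smad1, which carries the signal, had means of 56.6 CPM (SD 2.62) in day 5 TDECs and 54.7 CPM (SD 1.56) in MBMECs.

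**Figure D4:**
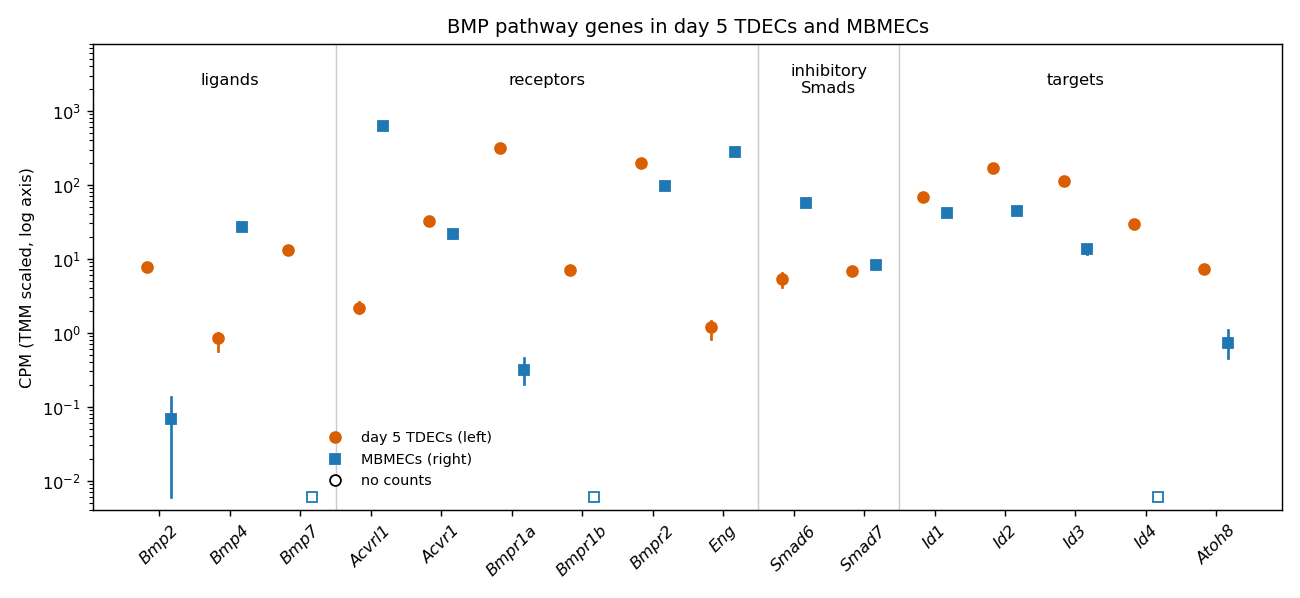
Mean CPM of the members and of 6 other ligand and receptor genes in day 5 TDECs (circles, left) and MBMECs (squares, right) on a log axis, with the range of 3 libraries as a line and open symbols for groups with no counts, drawn at the foot of the axis. A line that reaches the foot marks a library with no counts. Acvrl1, Eng, Bmp4 and Smad6 lie higher in MBMECs, and Bmpr1a, Id2, Id3, Id4 and Atoh8 higher in TDECs.

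Of the 41 other pathway genes tested against MBMECs, 16 were called higher and 9 lower in TDECs, where 28.1% and 20.8% of all genes were. Bmp2 had 275 counts over the TDEC libraries against 3 over those of MBMECs, 114 times the level after scaling (counting interval at 95% from 38.4 to 554). Bmp7 had 468 counts against 0, at least 193-fold higher in TDECs. Chrdl1, a secreted BMP antagonist of the chordin family, had 2907 counts in TDECs and 0 in MBMECs, at least 1200-fold higher. Fst, the gene of follistatin, which binds activins and some BMPs, averaged 1.32 CPM in TDECs against 426 CPM in MBMECs (log2 difference -8.26 ± 0.10 SE, adjusted p = 8.7e-32).

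When the 5 groups were ranked by level for each member, 40 neighbouring pairs arose and 34 were tested in a fit of all 15 libraries. Left out were pairs of day 2 with 005 and, for Acvrl1 and Atoh8, every pair with day 2. Of the 34, 20 differed at an adjusted p under 0.05 and 14 did not, counts that hold 3 pairs of Acvrl1 or Atoh8 with 005. They also hold pairs of Bmp4, which is in this fit only through the MBMECs. The share over all genes was not counted, so nothing is read from these counts. For Acvrl1 the order was MBMECs, day 2, sertraline, day 5 and 005, and sertraline differed from day 5 (adjusted p = 0.015) and day 5 and 005 overlapped. For Atoh8 it was day 2, sertraline, day 5, 005 and MBMECs, where sertraline and day 5 (adjusted p = 0.13) did not pass the threshold, and 005 and MBMECs overlapped. Id1 was ordered day 5, day 2, sertraline, MBMECs and 005. Its first 2 steps did not differ (adjusted p = 0.64 and 0.052), and its last did (adjusted p = 3.2e-09). Id2 and Id3 had day 2 first and MBMECs last, Id4 had day 5 first and MBMECs last, and Smad6 had MBMECs first and 005 last. For Smad7, sertraline stood first, above MBMECs (adjusted p = 0.013).

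The genes most like Acvrl1 over the 15 libraries, by Pearson correlation of log2 CPM, were Ptpn12 (0.991), Usp16, Cd109, Ctnna1 and Peg13 (0.990 each), all highest in MBMECs and next highest on day 2. Those most like Atoh8 were Ugp2 and Ogn (0.960 each), Rarb (0.957), Sucnr1 (0.956) and Casp1 (0.954). Rarb, the retinoic acid receptor beta, averaged 0.556 CPM in 005, 86.2 CPM on day 2, 52.5 CPM on day 5, 70.7 CPM with sertraline and 0.202 CPM in MBMECs. Libraries of a group share their source, so these correlations over 12726 genes are descriptions.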

How the data were processed

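Poly(A) RNA of the 15 libraries was made into strand-specific libraries and sequenced by the authors, who deposited raw counts of reads per gene. Reads were counted with featureCounts 1.6.3 on build mm10. The submitters' processing notes also name HISAT2 2.1.0, Trimmomatic 0.38 and bcl2fastq 2.19. The annotation release, the strand setting and the treatment of reads with several alignments are not given in the sources used here. The 10 members and all gene lists were chosen with earlier results of these data known.

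In each of 5 comparisons the 6 libraries concerned were filtered by filterByExpr (minimum count 10), scaled by TMM and compared by the two-sided quasi-likelihood test of edgeR 4.0.16 in R 4.3.3, with Benjamini-Hochberg adjustment over all genes tested. Genes were called at an adjusted p under 0.05 and a change of more than 1 on the log2 scale, as in the study. CPM values were scaled by TMM over all 15 libraries. Intervals are 95% and normal on the log2 scale, and those of ratios cover counting error only. FPKM values are CPM per kilobase of GENCODE exons, whose release may not be that of the counts. The scripts were tested on simulated counts.

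All members were named, and from each list up to 3 called genes per direction and comparison, by smallest p. For Acvrl1 and Atoh8 the 5 most correlated genes were named. Acvr1, Bmpr1b, Bmpr2, Smad1, Gdf2, Bmp10, A330033J07Rik and Gm16031, and Bmpr1a within the time course and with sertraline, were named after their values were seen. Some genes that this rule takes are not reported here. Replicate numbers did not pair the libraries. Alternatives were other size factors, plain library totals, DESeq2 1.42.0, no filter, all 15 libraries in a single fit, a replicate block and each library left out.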

Additional observations from a re-analysis of the deposited data

How the results depend on the processing

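Most results kept their direction and their side of the thresholds: 543 member values under alternatives did, 4 changed sign and 1 passed the threshold (on adjusted p and fold jointly). For day 2 against 005, which has no test, a value was kept if its sign held and it moved by less than the larger within-group SD. Bmp4 is left out of these values where the filter removed it, though some alternatives called it, also on day 5 against 005. Of the counts, 225 stayed within 1.5 times and 14 moved further. At any fold, 8 values lost an adjusted p under 0.05 (Acvrl1, Id1 and Atoh8 with sertraline) and 4 gained it (Id3 with sertraline, and Eng and Id1 on day 5 against day 2), leaving out Acvrl1 and Atoh8 in the time course. The values that changed sign were all near 0. The Smad6 difference between day 5 and day 2 ranged from -0.159 (without day 2 replicate 2) through -0.065 (without day 5 replicate 1) to 0.233, that of Smad6 with sertraline from -0.281 to 0.017 (without day 5 replicate 1), with single libraries left out, and that of Id2 with sertraline became 0.047 with plain library totals. The Eng difference between day 5 and day 2 became 1.69 without day 2 replicate 3.

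Members called higher on day 5 against day 2 numbered 0, but 1 with no filter, 1 in the fit of all 15 libraries and 0 to 2 with single libraries left out. They were Bmp4 and, without day 2 replicate 3, also Eng. The filter removes Bmp4 in the main comparison. It enters the fit of all 15 libraries only through the MBMECs, so nothing is read from its calls. Members called lower with sertraline numbered 0, but 1 (Bmp4) with no filter, 1 in the fit of all 15 libraries and 0 to 1 with single libraries left out. Other pathway genes called higher with sertraline numbered 0, but 1 (Gdf7) with no filter and 0 to 1 (Fst, without sertraline replicate 1) with libraries left out. Other pathway genes called lower on day 2 against 005 ranged from 2 to 5 with libraries left out, the 5 without day 2 replicate 1. Those called higher on day 5 against 005 were 5 with plain library totals, a scaling that shifts the median of all genes by -0.13 in that comparison and moves its calls to 1743 higher and 1999 lower, against 2043 and 1633 with TMM.

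Same-numbered libraries of different groups did not deviate together (correlations of -0.084 to 0.023), and a replicate block left all counts of members and pathway genes as they were, for example 5 members higher on day 5 against 005. With the block, 19 of the neighbouring pairs differed. Without the block 20 did, and 17 to 23 did over all alternatives.

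Depth limits Eng and Bmp4, which had at most 17 counts per library outside MBMECs, and Smad6 in 005.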
